A study of Mus musculus with 24 samples.

Results

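The genes of versican and of the hyaluronan matrix were followed in pancreatic stellate cells (PSC) that shared medium with pancreatic cancer cells. They were 10 genes listed by symbol, taken out of 53801 genes in the deposited table, of which 28892 were above 0 in at least 1 library. The list held the proteoglycan versican (Vcan), the hyaluronan synthases Has1, Has2 and Has3, the hyaluronan receptor Cd44, the link proteins Hapln1 and Hapln3, the hyaluronan-binding protein Tnfaip6, and the hyaluronidases Hyal1 and Hyal2. PSC came from pancreata of wild-type C57BL/6J mice aged 7 to 10 weeks, pooled from 4 to 10 animals per isolation, and were used at low passage. The cancer cells, called KPC cells, were a line from a genetically engineered mouse model of pancreatic cancer that uses p48-Cre. In standard co-culture (distant paracrine), PSC sat on a porous membrane and KPC cells on the floor of the well. In inverse co-culture (close paracrine), KPC cells grew on the underside of that same membrane, with 1 µm pores. Control PSC of each model were mono-cultured, and RNA was taken at 24 h and 72 h, which gave 8 groups of 3 libraries. Libraries of the standard model were built from 450 ng of RNA and those of the inverse model from 120 ng, so model and RNA input cannot be told apart. By the study's methods, PSC of the inverse model met KPC cells as soon as they were seeded, before the hours were counted, so time beside KPC cells was longer there than the labelled hours and is likewise tied to the model. So is the seeding medium. Standard PSC and their controls were seeded in a low-glucose medium that was replaced when counting began. Inverse PSC and their controls were seeded directly in the final medium.

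Versican is a large chondroitin sulfate proteoglycan whose N-terminal domain binds hyaluronan and whose C-terminal domain binds other matrix proteins. Hyaluronan is an unsulfated sugar chain that the synthases extrude through the plasma membrane from activated sugars made in the cytosol. Link proteins lock versican onto the chain, Tnfaip6 (TSG-6) binds it and transfers protein chains to it, Cd44 is its main cell surface receptor, and hyaluronidases cut it. In pancreatic cancer, this matrix is made largely by fibroblasts and PSC and fills much of the stroma.

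The table gave FPKM, the fragments of a gene scaled to its length and to library depth, and 15932737 to 24798761 counted fragments per library were recovered from the values. Of 11 stellate cell and fibroblast markers, 10 were above 1 FPKM in every library, led by Col3a1 with a median of 12829 FPKM and Col1a1 with 7984 FPKM. The exception was Gfap, a classical stellate cell marker, which stayed at or below 0.238 FPKM. Acinar markers (5 genes) stayed at or below 0.268 FPKM each, and of 5 endothelial markers only Tek passed 1 FPKM. Both standard libraries of replicate 1 at 24 h stood apart, with 3129 to 5963 FPKM of the smooth muscle actin gene Acta2 against 581 to 1509 FPKM in replicates 2 and 3. Standard replicate 2 carried macrophage transcripts in every group, with a summed level of 7 markers of 345.8 to 1159 FPKM against 35.6 to 161.6 FPKM in the other standard libraries. Inverse co-culture replicate 2 at 24 h carried epithelial keratins, with Krt8 at 15.2 FPKM. Krt8 was at 0.919, 0.0880 and 3.14 FPKM in the inverse co-cultures at 72 h, and all 6 inverse controls were at 0 FPKM. Krt19 was at 1.64 to 11.6 FPKM in the inverse co-cultures at 24 h and 1.17 to 3.11 FPKM at 72 h, against at most 0.37 FPKM in their controls.

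The sequence in front of the 4 genes that rose in inverse co-culture at 72 h is shown so that they can be set side by side. RefSeq's promoter table held 8 of the 10 genes. The windows are the bases before both the RefSeq start and the GENCODE M21 gene start in GRCm38.p6, written 5′ to 3′ on the strand of the gene. Vcan was at chr13:89742513-89742762 (minus strand, 250 bases), Has1 at chr17:17855206-17855438 (minus, 233 bases), Cd44 at chr2:102901666-102901915 (minus, 250 bases) and Tnfaip6 at chr2:52037863-52038008 (plus, 146 bases). Capitals mark matches on either strand to 6 motifs, which were AP-1 (TGANTCA), CRE (TGACGTCA), C/EBP (TTGCNNAA), NF-kB (GGGA and, after any 2 bases, TTCC), the TATA box (TATAAA) and the CCAAT box (CCAAT).
Vcan: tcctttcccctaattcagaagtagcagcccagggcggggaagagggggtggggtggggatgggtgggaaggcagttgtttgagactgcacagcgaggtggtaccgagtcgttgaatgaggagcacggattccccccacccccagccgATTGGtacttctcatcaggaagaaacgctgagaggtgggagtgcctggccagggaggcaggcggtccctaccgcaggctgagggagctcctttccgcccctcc
Has1: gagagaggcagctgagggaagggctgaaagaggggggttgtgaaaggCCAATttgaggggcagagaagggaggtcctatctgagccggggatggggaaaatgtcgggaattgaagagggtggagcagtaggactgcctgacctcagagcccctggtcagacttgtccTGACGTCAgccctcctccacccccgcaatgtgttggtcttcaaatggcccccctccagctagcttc
Cd44: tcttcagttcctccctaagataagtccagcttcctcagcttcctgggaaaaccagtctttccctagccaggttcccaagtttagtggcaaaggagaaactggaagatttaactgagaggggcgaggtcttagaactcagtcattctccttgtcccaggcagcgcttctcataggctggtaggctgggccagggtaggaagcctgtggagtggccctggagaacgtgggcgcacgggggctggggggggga
Tnfaip6: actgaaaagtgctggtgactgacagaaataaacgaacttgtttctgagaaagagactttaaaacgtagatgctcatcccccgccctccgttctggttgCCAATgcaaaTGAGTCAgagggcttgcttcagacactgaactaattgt
Vcan, Has1 and Tnfaip6 each held 1 CCAAT box, a match that 33.8%, 32.4% and 19.4% of the 32851 RefSeq windows cut to the same length also held. The Has1 window held 1 CRE, which 1.32% of windows of its length held. The Tnfaip6 window held 1 AP-1 match, which began 38 bases before the window's end and followed its CCAAT box at 48 bases, and 3.86% of windows of its length held an AP-1 match. Cd44 held none of the 6, and no motif other than the CCAAT box was shared by any pair of the 4 genes. A match describes the letters only.

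Vcan was higher in co-cultured PSC than in control PSC in both models and at both time points, and every co-culture library lay above every control library of the study. The share of all genes with that order over the whole study was not computed, and shares are given below for each comparison. The gene spans chr13:89655312-89742509 on the minus strand with 16 merged exons, and 1464 to 8511 fragments per library lay on it. In standard co-culture at 24 h, control replicates 1, 2 and 3 had 24.3, 34.95 and 32.4 FPKM and co-culture replicates 76.1, 93.1 and 107 FPKM. At 72 h, the standard controls had 38.5, 28.7 and 21.5 FPKM and the co-cultures 82.0, 89.3 and 75.05 FPKM. The groups did not overlap, as in 3.35% of all genes tested at 24 h and 3.36% at 72 h that were higher in every co-culture. The mean was 3.01-fold higher at 24 h and 2.78-fold higher at 72 h. In limma's moderated test on log2(FPKM + 0.5), the difference was 1.58 (SE 0.19, n = 3 against 3, adjusted p = 0.634 with limma) at 24 h and 1.49 (SE 0.22, adjusted p = 0.362) at 72 h. By unadjusted p, Vcan ranked 3rd of 12859 genes at 24 h and 7th of 12863 genes at 72 h.

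The standard comparisons called 0 genes in all at an adjusted p under 0.05, 0% of those tested. At an unadjusted p under 0.05, 371 genes (2.89%) and 2 of 7 tested members were past the threshold at 24 h, and 800 genes (6.22%) and 2 of 7 members at 72 h. Replicate numbers paired the standard libraries, and with the replicate as a block limma called Vcan at 24 h (1.58, SE 0.09, adjusted p = 0.00971), among 157 genes called in all. At 72 h the blocked difference of Vcan was 1.49 (SE 0.17, adjusted p = 0.15). A model of all 24 libraries called 5 genes and 1 member at 24 h, and 36 genes and 1 member at 72 h.

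In inverse co-culture, Vcan was the 1 of 6 tested members that rose at 24 h, where 1.08% of all genes tested were called higher, 1.39% lower and 2.47% in either direction (139 higher and 178 lower, or 179 and 144 after scaling by the median of gene ratios). Controls had 36.7, 33.2 and 22.2 FPKM and co-cultures 50.7, 69.9 and 87.2 FPKM. The co-culture libraries spread more than at any other time point, but all lay above the controls, as in 7.38% of all genes tested. At an unadjusted p under 0.05, 2 of 6 members and 14.8% of all genes were past the threshold. The difference was 1.16 (SE 0.23, adjusted p = 0.0391, limma). The call was lost without any 1 of the 3 control libraries or without co-culture replicate 2 (adjusted p up to 0.136), which is the library with keratin transcripts. Without that library, the difference was 1.13. The call was also lost in 4 of 11 other settings, with no filter, no intensity trend, the replicate block and all 24 libraries in one model (up to 0.149).

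At 72 h of inverse co-culture, 4 of 7 tested members rose and 0 fell, where 3.27% of all genes tested were called higher, 9.57% lower and 12.8% in either direction. They were Vcan, Has1, Cd44 and Tnfaip6, of which Has1 met the filter of 1 FPKM only through its co-culture libraries. The 427 genes called higher and 1251 called lower became 748 and 679 after scaling by the median of gene ratios, since the median difference of all genes was -0.16. The ductal keratin gene Krt19 also rose in this comparison (2.03, SE 0.40, adjusted p = 0.0189, limma). Like Has1, Krt19 met the filter only through its co-culture libraries, which limits what its test can show. Sox9, the other tested epithelial marker, had a difference of -0.82 (SE 0.26, adjusted p = 0.0737, limma). The summed level of all 9 epithelial markers was 6.68 to 10.2 FPKM in co-cultures and 6.16 to 7.795 FPKM in controls, and their part in the member levels was not tested. Fits that left out 1 library called 368 (without control replicate 3) to 1637 genes in all, against 1678 with all 6, and 503 without co-culture replicate 1, 514 without control replicate 1 and 914 without control replicate 2. At an unadjusted p under 0.05, 7 of 7 members and 32.2% of all genes were past the threshold. Vcan had 46.1, 42.9 and 22.9 FPKM in controls and 79.4, 81.1 and 79.4 FPKM in co-cultures. The 3 co-cultures were within 2 FPKM of each other, while the controls spread widely, and 9.53% of all genes tested were likewise higher in every co-culture. The difference was 1.15 (SE 0.24, adjusted p = 0.0233, limma), and it lost its call without co-culture replicate 1 (1.16, adjusted p = 0.0792) and with no filter (adjusted p = 0.0609). Over the 8 groups, the order of mean levels put the 4 co-culture groups first (92.1, 82.1, 80.0 and 69.3 FPKM) and the 4 control groups after them (37.3, 30.7, 30.6 and 29.5 FPKM). Neighbouring groups overlapped everywhere in that order except at the step from co-culture to control. How many of all genes had such an order was not computed. Fewer cells of a type and less RNA per cell cannot be told apart in such bulk libraries.

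**Figure D1:**
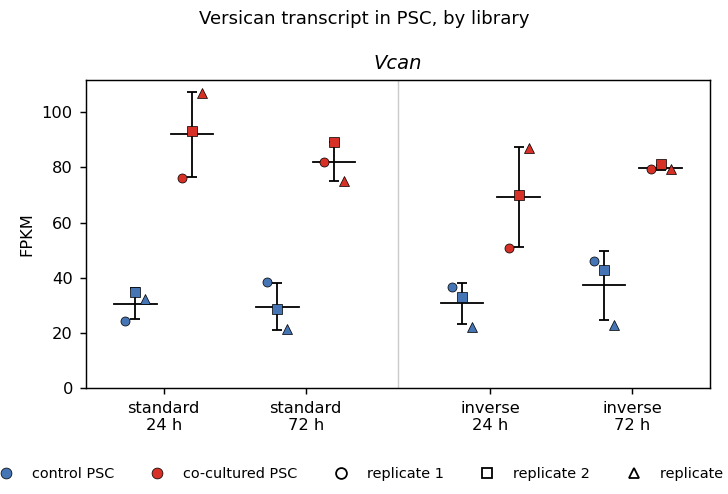
Level of Vcan in FPKM on a linear axis from 0, by model and time point, with each library as a point (circle, square and triangle for replicates 1, 2 and 3) and the mean with SD in black (n = 3). The 12 co-cultured libraries sit between 50.7 and 107 FPKM, and the 12 control libraries between 21.5 and 46.1 FPKM.

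The 3 synthases differed in level per length. Has2 (chr15:56665627-56694539, minus strand), which makes the bulk of hyaluronan in most mesenchymal cells, was at 1.145 to 13.03 FPKM and had the highest median over all libraries (6.35 FPKM against 1.95 FPKM of Has1). Has1 was above Has2 in every standard library of replicate 2 (9.65 against 5.32 FPKM in the 72 h co-culture). It was also above Has2 in both standard libraries of replicate 3 at 72 h, and below it in every other library. Has3 (chr8:106870242-106884566, plus strand) did not exceed 0.706 FPKM in any library and was not tested. At 72 h of inverse co-culture, its co-cultures had 0.321, 0.261 and 0.186 FPKM, below all 3 controls (0.4975, 0.563 and 0.706 FPKM), on 13 to 63 fragments per library. Of all genes tested, 28.8% were likewise lower in every co-culture.

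Has1 (chr17:17843323-17855205, minus strand), the synthase that is often induced by inflammatory signals, rose in inverse co-culture at 72 h. Its controls had 0.786, 1.44 and 0.401 FPKM and its co-cultures 5.00, 2.995 and 2.10 FPKM, with no overlap and a 3.84-fold higher mean. Of all genes tested there, 9.53% were likewise higher in every co-culture. Has1 thus met the filter of 1 FPKM in 3 libraries only through the group where it was high, which limits what its test can show. The difference was 1.49 on the log2(FPKM + 0.5) scale (SE 0.39, adjusted p = 0.0458, limma). The call stood close to the threshold and was lost in 5 of 6 fits that left out a library, among them those without co-culture replicate 1 (1.20, adjusted p = 0.145) and without control replicate 3 (1.22, adjusted p = 0.146). It was also lost with a pseudocount of 0.1, no filter, no intensity trend, the replicate block and all 24 libraries in one model (adjusted p up to 0.269), and kept under the other 5 settings. At 24 h of inverse co-culture, Has1 was below the filter of 1 FPKM in 3 libraries, with 0.781, 0.193 and 0.113 FPKM in controls and 2.27, 0.710 and 2.44 FPKM in co-cultures. In standard co-culture, Has1 differed more between replicates than between cultures. At 24 h the controls had 0.0210, 3.19 and 0.799 FPKM and the co-cultures 0.356, 8.62 and 2.13 FPKM. At 72 h the controls had 0.643, 5.63 and 3.14 FPKM and the co-cultures 1.79, 9.65 and 7.40 FPKM. Each of the 6 same-numbered pairs was higher in co-culture, by 0.72 to 1.31, but the groups overlapped. The difference was 1.01 (SE 1.05, adjusted p = 1) at 24 h and 0.95 (SE 0.78, adjusted p = 0.869) at 72 h, and with the replicate block its adjusted p was 0.128 and 0.295 (limma). In the standard libraries, the summed level of 6 mesothelial markers was also lowest in replicate 1 (13.4 to 24.6 FPKM) and highest in replicate 2 (40.2 to 48.1 FPKM), led by Wt1. Its part in the Has1 level was not tested.

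Has2 was higher on average in co-culture in each of the 4 comparisons, but no comparison called it. In standard co-culture at 24 h, controls had 10.7, 2.69 and 3.87 FPKM and co-cultures 13.03, 7.19 and 8.90 FPKM. At 72 h, controls had 9.81, 1.145 and 2.37 FPKM and co-cultures 7.62, 5.32 and 6.83 FPKM. Replicate 1, which also had the highest Acta2, had the highest Has2 of its group in all 4 of these groups. The difference was 0.88 (SE 0.50, adjusted p = 1) and 0.94 (SE 0.64, adjusted p = 0.821, limma), and without both libraries of replicate 1 it was 1.19 at 24 h and 1.59 at 72 h. Over 11 other settings, the lowest adjusted p was 0.0515 at 24 h and 0.51 at 72 h (limma), and no setting called it. In inverse co-culture at 24 h, controls had 7.72, 6.65 and 3.97 FPKM and co-cultures 7.87, 7.405 and 11.47 FPKM. At 72 h, controls had 3.61, 3.73 and 1.96 FPKM and co-cultures 6.04, 3.90 and 5.73 FPKM, so the groups were just apart. Of all genes tested at 72 h, 9.53% were likewise higher in every co-culture. The difference was 0.53 (SE 0.26, adjusted p = 0.391) and 0.69 (SE 0.28, adjusted p = 0.131, limma). Has2 shares 182 exon bases (4.295% of its length) with the antisense gene Has2os, and the counting disregarded strand.

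Cd44 (chr2:102811141-102901665, minus strand), at 26.3 to 92.7 FPKM in all libraries, passed the threshold at 72 h of inverse co-culture, where it rose, and in no other co-culture comparison. Its controls there had 30.2, 29.3 and 31.3 FPKM. Its co-cultures had 47.9, 39.3 and 62.35 FPKM, all above the controls, as in 9.53% of all genes tested. The highest of them was replicate 3, the co-culture with the most Krt8 at 72 h, and the part of epithelial transcripts in it was not tested. The difference was 0.68 (SE 0.16, adjusted p = 0.0349, limma), and it lost its call in 4 of 6 fits that left out a library (adjusted p up to 0.107), and with no filter, no intensity trend and all 24 libraries in one model (up to 0.256), and kept it under the other 8 settings. At 24 h, the inverse controls had 49.8, 48.55 and 36.7 FPKM and the co-cultures 43.1, 47.7 and 61.8 FPKM, which overlapped. Across both time points, the mean of the inverse controls went from 45.0 to 30.3 FPKM while that of the co-cultures was 50.9 and 49.8 FPKM. In standard co-culture, replicate 1 again stood apart, with 92.7 FPKM in both its control and its co-culture at 24 h. The other libraries of that time point had 32.7 and 35.1 FPKM in controls and 43.3 and 46.3 FPKM in co-cultures. The standard difference was 0.26 (SE 0.48, adjusted p = 1) at 24 h and 0.41 (SE 0.35, adjusted p = 0.873) at 72 h, and without both libraries of replicate 1 it was 0.40 and 0.82 (limma).

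Link protein transcripts were near the limit of detection. Hapln1, which lies 43659 bases from Vcan on chromosome 13, had 3 fragments in all 24 libraries together and was at 0 in 21 of them. Hapln3 was at or below 0.788 FPKM, with 0 to 24 fragments per library, and in standard co-culture at 72 h all 3 co-cultures (0.0346, 0.106 and 0.149 FPKM) lay below all 3 controls (0.4996, 0.2505 and 0.347 FPKM), an order found in 9.78% of genes tested there. Neither passed the filter, so no test was made, and a difference was not detectable at this depth for Hapln1.

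Tnfaip6 (chr2:52038009-52056686, plus strand), a secreted protein that inflammatory signals induce and that crosslinks hyaluronan, had all 3 co-cultures above all 3 controls in each of the 4 comparisons. The share of all genes with such an order in each comparison is given above with Vcan. At 24 h of standard co-culture, the controls had 2.88, 2.86 and 2.08 FPKM and the co-cultures 5.69, 8.08 and 5.03 FPKM. At 72 h, the controls had 1.36, 4.69 and 4.73 FPKM and the co-cultures 5.80, 9.62 and 7.51 FPKM. The difference was 1.11 at both time points (SE 0.25, adjusted p = 1, and SE 0.44, adjusted p = 0.779, limma). With the replicate block, Tnfaip6 was called at 24 h (SE 0.17, adjusted p = 0.0435) and not at 72 h (SE 0.26, adjusted p = 0.335), and limma voom on recovered fragments with the block called it likewise.

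In inverse co-culture, Tnfaip6 had 2.31, 2.69 and 2.66 FPKM in controls and 4.66, 4.11 and 8.93 FPKM in co-cultures at 24 h. The difference of 1.00 (SE 0.28, adjusted p = 0.117, limma) was not called. At 72 h, its controls had 2.50, 2.59 and 2.16 FPKM and its co-cultures 8.15, 6.18 and 9.11 FPKM. Its mean was 3.23-fold higher, and the difference was 1.50 (SE 0.20, adjusted p = 0.00667, limma). It kept its call without any 1 library (adjusted p = 0.00655 to 0.0408). The gene is short, with 1710 exon bases, and these levels rested on 63 to 291 fragments per library.

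Hyaluronidase transcripts passed the threshold in no co-culture comparison, and at 72 h of inverse co-culture both were lower on average. Hyal2, a membrane-anchored enzyme that starts the cleavage of long chains, had 30.7, 23.3 and 30.6 FPKM in controls and 18, 21.95 and 18.02 FPKM in co-cultures. These groups did not overlap, as in 28.8% of genes tested that were lower in all co-cultures. The difference was -0.53 (SE 0.15, adjusted p = 0.0547, limma), and it was -0.37 (adjusted p = 0.127) after scaling by the median of gene ratios. Hyal2 did pass the threshold with a mean FPKM above 5 as the filter (adjusted p = 0.0474), with limma voom on recovered fragments (0.0412), with all 24 libraries in one model (0.0496) and without replicate 2 of either culture (lowest 0.0404), and not under the other alternatives (up to 0.176). Hyal1, the lysosomal enzyme, had 6.875, 5.50 and 6.64 FPKM in controls and 3.21, 5.67 and 4.05 FPKM in co-cultures, with overlap, and a difference of -0.53 (SE 0.22, adjusted p = 0.143). In the other 3 comparisons, differences ranged from -0.46 to 0.29 for the pair, and adjusted p from 0.754 to 1. Of the exon length of Hyal1 (chr9:107576927-107581710), 50.8% (1920 bases) overlaps Naa80 on the same strand, and reads shared by both were left out by the counting. Macrophage markers were also lower in inverse co-culture at 72 h (summed level of 7 markers 48.8 to 76.2 FPKM against 113.2 to 219.2 FPKM in controls), as were 5 adipocyte markers (22.7 to 94.0 against 394.2 to 829.4 FPKM). Of the 12 markers, 0 were at 0 in all libraries of either group, and their part in the member levels was not tested.

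**Figure D2:**
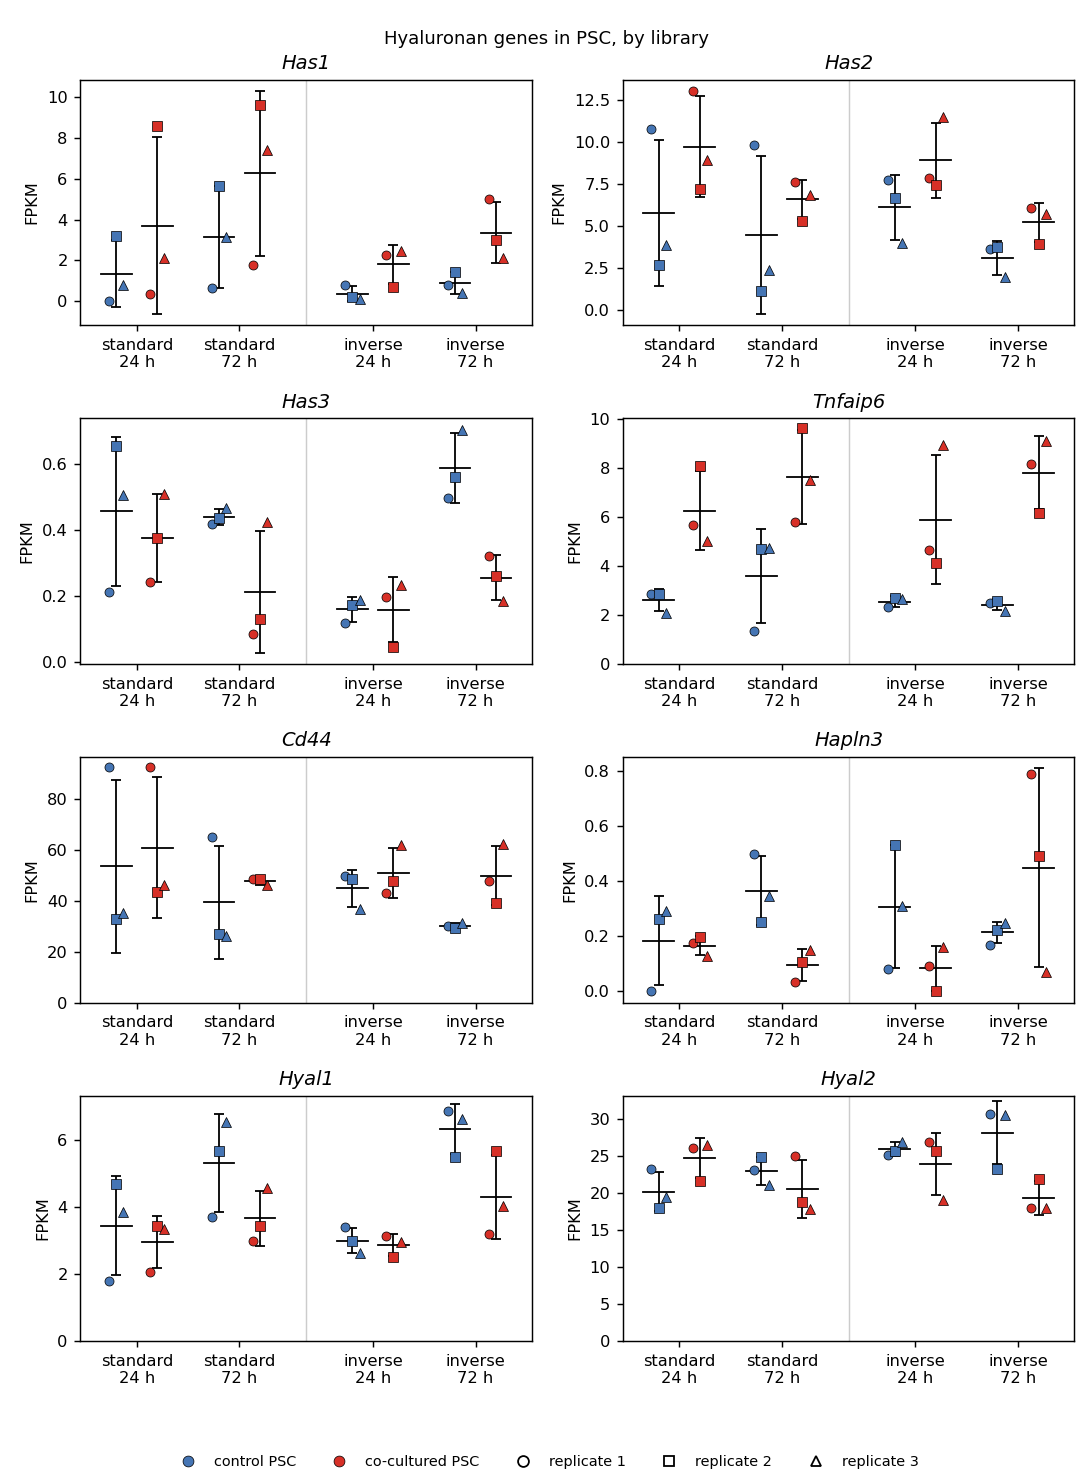
Levels in FPKM (linear axes, 1 panel per gene, scales differ) of 8 hyaluronan genes, by model and time point. Points are libraries (circle, square and triangle for replicates 1, 2 and 3), and black lines are the mean with SD (n = 3). Standard replicate 1 (circles) is lowest for Has1 and high for Has2 and Cd44, and Tnfaip6 co-cultures lie above their controls in all 4 comparisons.

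**Figure D3:**
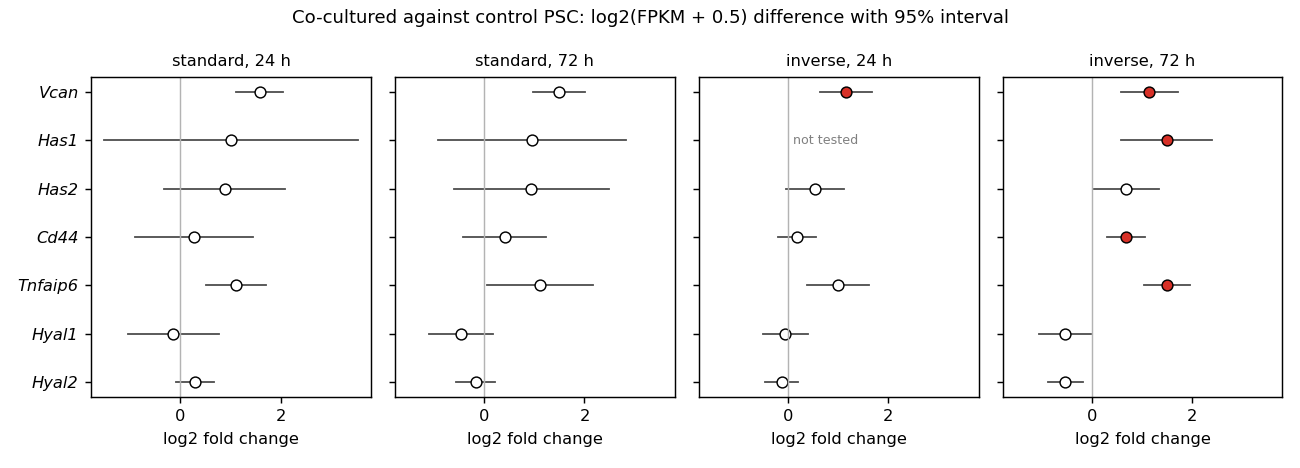
Difference between co-cultured and control PSC on the log2(FPKM + 0.5) scale (points) with its 95% interval (lines) for the 7 members tested in at least 1 comparison, n = 3 against 3. Filled points had an adjusted p under 0.05 (limma): Vcan at 24 h and Vcan, Has1, Cd44 and Tnfaip6 at 72 h of inverse co-culture.

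Whether the effect of co-culture depended on the model was tested over all 24 libraries, and 0 of 7 members differed, with 0 of 14452 genes called at either time point (182 genes, 1.26%, at 24 h and 501 genes, 3.47%, at 72 h at an unadjusted p under 0.05, and 0 by limma voom on recovered fragments). At 72 h, 16 genes were called with the replicate block and 5 with no filter, and 0 of them were members. The Vcan effect in inverse minus that in standard co-culture was -0.42 (95% interval -1.19 to 0.35) at 24 h and -0.34 (-1.11 to 0.42) at 72 h. That of Tnfaip6 at 72 h was 0.38 (-0.59 to 1.36). The intervals are wide and do not show that the models act alike. Between time points, 0 of 7 members differed in effect in either model, with 0 of 13694 genes called in standard and 0 of 13722 genes in inverse co-culture (141 genes, 1.03%, and 1471 genes, 10.7%, at an unadjusted p under 0.05, and 0 and 14 genes by limma voom). In inverse co-culture, 75 genes were called without co-culture replicate 3 at 24 h, 43 without control replicate 2 at 72 h, 20 without co-culture replicate 2 at 72 h and at most 2 without any other library, and no member among them. The effect at 72 h minus that at 24 h in inverse co-culture was 0.51 for Cd44 (-0.03 to 1.06, adjusted p = 0.489) and 0.50 for Tnfaip6 (-0.26 to 1.26, adjusted p = 0.623, limma).

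Control PSC themselves changed between 24 h and 72 h in the inverse model, where 10.2% of all genes tested were called higher, 9.05% lower and 19.2% in either direction (34.7% at an unadjusted p under 0.05). The 2516 calls fell to 225 (1.56%) with all 24 libraries in one model and to 1243 (9.64%) without 24 h control replicate 2, and their split of 1331 higher and 1185 lower became 1144 and 1591 after scaling by the median of gene ratios. Among 6 members tested, Hyal1 rose by 0.96 (SE 0.17, adjusted p = 0.00686, limma), from 2.63 to 3.40 FPKM at 24 h to 5.50 to 6.875 FPKM at 72 h. Cd44 fell by 0.55 (SE 0.13, adjusted p = 0.0189), and lost this call without control replicate 1 of either time point or without replicate 2 at 24 h (adjusted p up to 0.0772). Neither Hyal1 nor Cd44 was called with all 24 libraries in one model. The summed level of 7 macrophage markers in these controls was 66.2 to 74.8 FPKM at 24 h and 113.2 to 219.2 FPKM at 72 h, and that of 5 adipocyte markers 153.3 to 234.9 and 394.2 to 829.4 FPKM, and their part in the member levels was not tested. Has2 had a difference of -0.87 (SE 0.29, adjusted p = 0.0671), and was called in 2 of 9 other settings (lowest adjusted p = 0.0162, limma). Vcan had a difference of 0.25 (SE 0.27, adjusted p = 0.559). These controls are those of the inverse co-culture comparisons above. In the standard model, 0 of 7 members and 0 of 12963 genes were called over time (127 genes, 0.98%, at an unadjusted p under 0.05). Between the controls of both models, 0 members and 0 genes were called at 24 h or 72 h (225 genes, 1.74%, and 810 genes, 6.18%, at an unadjusted p under 0.05). Leaving out standard control replicate 1 at 24 h gave 58 genes called at 24 h (35 higher and 23 lower in inverse controls) and 0 members.

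Other genes of the pathway were taken from 7 lists by role with 66 genes, of which 44 or 45 were tested per comparison. In standard co-culture 0 of them were called. In inverse co-culture, 2 rose and 2 fell at 24 h, against 1.08% higher and 1.39% lower among all genes tested. At 72 h, 6 rose and 7 fell, against 3.27% higher and 9.57% lower among all genes tested.

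Of 5 hyaluronan turnover genes tested at 72 h of inverse co-culture, 3 fell and 0 rose (median difference -0.56, against -0.16 over all genes). Among all genes tested there, 3.27% were called higher and 9.57% lower. In the same comparison 4 of 5 tested macrophage markers fell, Lyz2 by 1.30, Csf1r by 1.39, C1qa by 1.66 and Adgre1 by 1.75 (adjusted p = 0.0132 to 0.0255, limma). Adgre1 met the filter only through the control libraries, where it was high, which limits what its test can show. The part of these markers in the levels of the turnover genes was not tested. Cemip, which binds hyaluronan and is needed for its depolymerisation by fibroblasts, was far above the hyaluronidases in level. Its inverse controls at 72 h had 149.5, 237 and 240.4 FPKM and its co-cultures 62.6, 53.5 and 47.9 FPKM, a fall by 1.90 (SE 0.20, adjusted p = 0.0039, limma). These groups did not overlap, as in 28.8% of genes tested that were lower in every co-culture. At 24 h, the inverse controls had 389.4, 325.2 and 312.6 FPKM and the co-cultures 138.5, 169.4 and 48.99 FPKM, again without overlap, as in 13.8% of genes tested that were lower in every co-culture (-1.70, SE 0.39, adjusted p = 0.0622). Cemip was called there in 3 of 11 other settings (lowest adjusted p = 0.00206, limma). In standard co-culture, each same-numbered pair was lower, and the difference was -0.89 (SE 0.41, adjusted p = 1) at 24 h and -1.10 (SE 0.46, adjusted p = 0.779) at 72 h. With the replicate block, Cemip was called at 24 h (SE 0.08, adjusted p = 0.0144). The lysosomal enzymes Hexa and Gusb, which remove sugars from the ends of cut chains, fell by 0.74 and 0.56 at 72 h of inverse co-culture (adjusted p = 0.0185 and 0.0321, limma). Gusb was called in 5 of 11 other settings, and was not called after scaling by the median of gene ratios (-0.40, adjusted p = 0.0762, limma).

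Of 12 tested genes that make the activated sugars, 1 rose at 24 h and 2 at 72 h of inverse co-culture, and 0 fell. Among all genes tested, 1.08% were called higher and 1.39% lower at 24 h, and 3.27% higher and 9.57% lower at 72 h. Gfpt2, an isoform of the first enzyme of the hexosamine pathway, rose by 0.73 (SE 0.11, adjusted p = 0.0165, limma) at 24 h. Gpi1, a glycolytic isomerase that supplies fructose phosphate, rose by 0.88 (SE 0.12, adjusted p = 0.00774), and Ugdh, which makes UDP-glucuronic acid, by 0.43 (SE 0.10, adjusted p = 0.0321), both at 72 h. In all 4 comparisons the 3 Ugdh co-cultures lay above their controls, an order whose share among all genes (3.35%, 3.36%, 7.38% and 9.53%) is given with Vcan, with differences of 0.52 and 0.74 in standard co-culture (adjusted p = 1 and 0.723) and 0.44 at 24 h of inverse co-culture (adjusted p = 0.117).

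Of 6 tested matrix proteins listed as versican partners, 1 rose and 1 fell at 24 h and 3 rose and 1 fell at 72 h of inverse co-culture. Elastin, which supplied the falls, is a neighbour of versican in the study's protein network, and direct binding is not shown. Shares over all genes tested were 1.08% higher and 1.39% lower at 24 h, and 3.27% higher and 9.57% lower at 72 h. Fibulin-1 (Fbln1) rose by 1.10 (SE 0.16, adjusted p = 0.0159, limma) at 24 h. Fibronectin (Fn1) rose by 1.51 (SE 0.17, adjusted p = 0.00475) at 72 h, from 2992 to 3618 FPKM in controls to 8873 to 10101 FPKM in co-cultures. Tenascin C (Tnc) rose by 1.55 (SE 0.26, adjusted p = 0.0122) and fibulin-2 (Fbln2) by 0.66 (SE 0.17, adjusted p = 0.0425) at 72 h, and Fbln2 lost its call when any 1 library was left out. With no filter on low values neither Fn1 nor Fbln2 was called (adjusted p = 0.118 and 0.369), and under quantile normalization the differences were 1.03 for Fn1, still called, and 0.31 for Fbln2, not called. Elastin (Eln), the core of elastic fibres, fell by 0.92 (SE 0.17, adjusted p = 0.0275) at 24 h and by 1.51 (SE 0.19, adjusted p = 0.00615) at 72 h. With the replicate block, Fbln1 and Fn1 were also called at 24 h of standard co-culture (0.68, adjusted p = 0.0271, and 0.78, adjusted p = 0.0274, limma).

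Few genes of the remaining lists were called. Calls over all genes tested in inverse co-culture were 1.08% higher and 1.39% lower at 24 h, and 3.27% higher and 9.57% lower at 72 h. Of 5 tested ADAMTS proteases that cleave versican, Adamts1 fell by 0.72 (SE 0.11, adjusted p = 0.0168, limma) at 24 h of inverse co-culture and 0 were called at 72 h. Of 8 hyaluronan receptors and binders tested at 72 h, pentraxin 3 (Ptx3), which Tnfaip6 is known to bind, rose by 0.80 (SE 0.12, adjusted p = 0.00884). The scavenger receptor Stab1 fell by 1.25 (SE 0.20, adjusted p = 0.011), and its highest levels were those of standard replicate 2 (44.7 to 105.6 FPKM), the libraries with most macrophage transcripts. Of 8 partners and sheddases of Cd44, Adam17 fell by 0.82 (SE 0.13, adjusted p = 0.00936) and Mmp14, a membrane-bound metalloproteinase, by 0.65 (SE 0.12, adjusted p = 0.0185) at 72 h. After scaling by the median of gene ratios, Mmp14 was not called (-0.48, adjusted p = 0.0579). The 3 other lecticans were not tested in any comparison.

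In fits that left out 1 of the 6 libraries at 72 h of inverse co-culture, Cemip, Fn1, Eln, Gpi1, Ptx3, Stab1 and Adam17 were called in 6 of 6. Tnc and Mmp14 were called in 4 of 6, Hexa in 3, Gusb in 2 and Ugdh in 1. At 24 h, Fbln1 was called in 5 of 6, Adamts1 and Gfpt2 in 3 and Eln in 2. Over 11 other settings, Fbln1 was called at 24 h in 8, and Adamts1, Gfpt2 and Eln in 7 each. Hexa and Mmp14 were called at 72 h in 9 of 11.

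**Figure D4:**
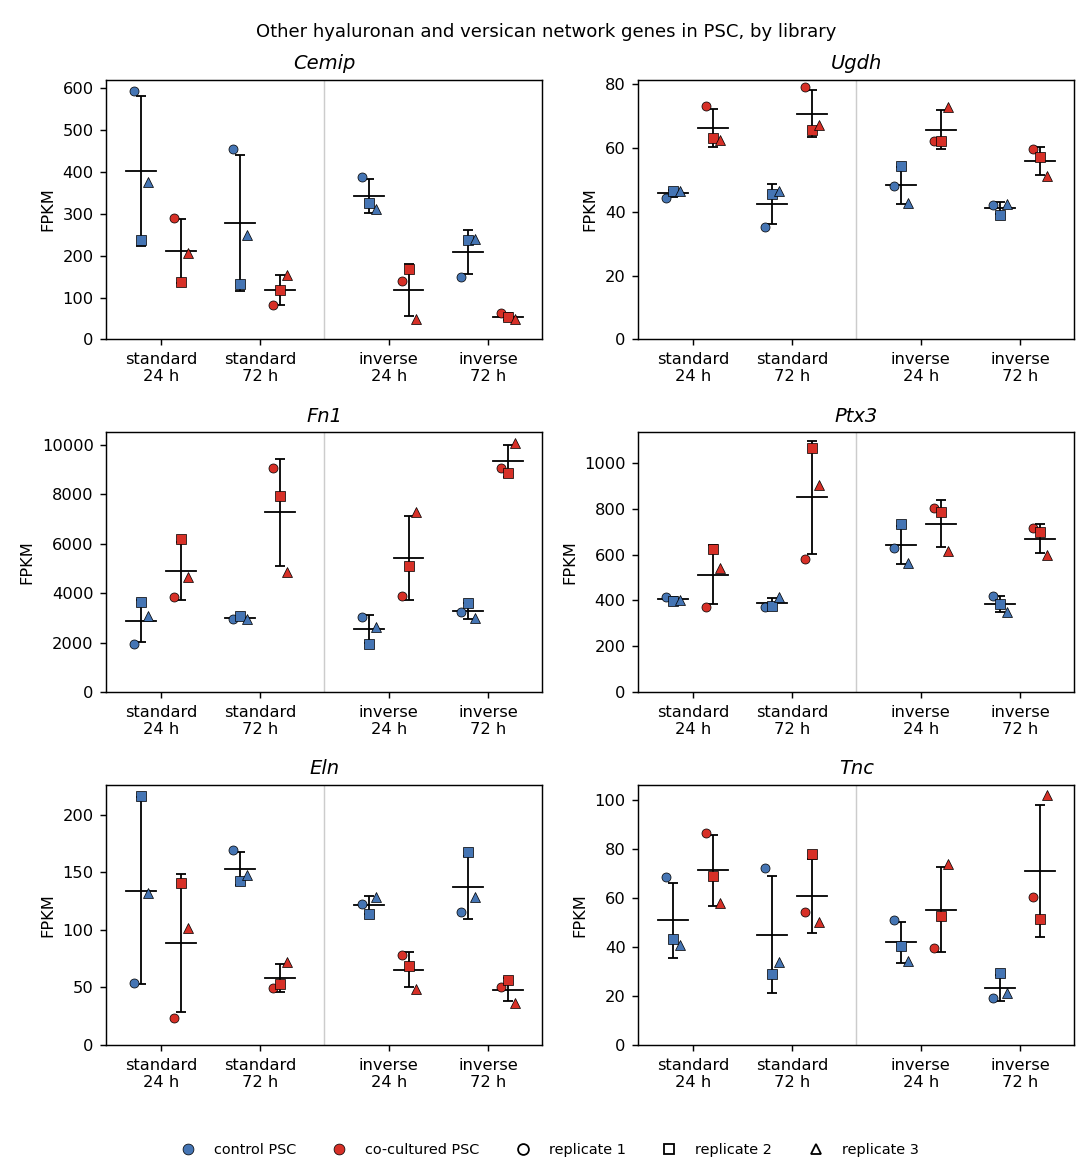
Levels in FPKM (linear axes from 0, 1 panel per gene, scales differ) of 6 genes of the pathway lists, by model and time point, with libraries as points (circle, square and triangle for replicates 1, 2 and 3) and the mean with SD in black (n = 3). Cemip and Eln co-cultures lie below their controls in the inverse model, and Ugdh and Fn1 co-cultures lie above their controls in all 4 comparisons. The shares of all genes with such orders are given in the text.

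The genes whose levels followed those of Vcan most closely over the 24 libraries, on log2(FPKM + 0.5) centred within each model, were Cdr2l (Pearson's r 0.96), the acyl-CoA synthetase Acsl4 (0.92), the chondroitin 4-sulfotransferase Chst11 (0.92), Stac2 (0.90) and the zinc transporter Slc39a10 (0.90), out of 12671 genes compared. Those closest to Has2 were Ssr3 (0.90), the branched-chain aminotransferase Bcat1 (0.90), Ckap4 (0.89), the oligosaccharyltransferase subunit Stt3a (0.89) and Calu (0.88). The points share library, depth and culture, and these values are a description with no test.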

How the data were processed

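PolyA RNA of 24 libraries was sequenced as paired ends. Per the labels and the study's methods, the authors aligned reads with HISAT2 2.0.5 to GRCm38 and counted fragments with featureCounts 1.5.0-p3 at default settings, which disregard strand, and deposited FPKM per gene. DESeq2 1.20.0 named there was run by the authors, and its results are not used here. Genes were named through GENCODE M21. The length behind a gene's FPKM was the mean of its annotated transcripts, rounded down, for 27162 of 28892 genes above 0 (94.0%), judged by values that were whole fragments within 0.001 in every library. For the rest, the nearest length that gave whole fragments was used, without a common factor. Fragments of the 28799 genes recovered in this way made up 99.7% to 99.8% of each library's depth. Levels of genes with many short transcripts, such as Vcan (3885 bases used, 14462 bases of merged exons), are thus high relative to other genes. Tests used limma (version 3.58.1; R 4.3.3; moderated, with intensity trend) on log2(FPKM + 0.5), two-sided, in genes above 1 FPKM in at least 3 libraries of the fit, with Benjamini-Hochberg adjustment over all genes tested and a threshold of 0.05. The fold change on this scale understates that of low genes. Co-cultures and controls were compared within model and time (6 libraries), effects between models over 24 libraries and between times over 12. Exact permutation of 3 against 3 cannot go below p = 0.1, so none is given. The steps were tested on simulated data. Same-numbered standard libraries deviated together (r = 0.39 to 0.77 over genes), so blocked values stand beside standard results where they change a call, and for Vcan, Has1 and Tnfaip6. Alternatives were other pseudocounts (1 and 0.1), filters, scalings, no trend, a replicate block, voom on fragments, all libraries in 1 model and leaving out libraries. Named were the members, called genes of 7 pathway lists, the 5 genes most like Vcan and Has2, and leading markers. The members and lists were chosen with earlier results of these data known. Promoters came from RefSeq (GRCm38.p6).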

Additional observations from a re-analysis of the deposited data

How the results depend on the processing

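Member counts moved with the settings as follows. In standard co-culture at 24 h, 2 members were called with the replicate block, 2 with voom on recovered fragments and the block (chosen after seeing the data) and 1 with all 24 libraries in one model, against 0, and at 72 h 1 with all 24 libraries. In inverse co-culture at 24 h, 0 were called with no filter, no intensity trend, the replicate block or all 24 libraries, against 1. At 72 h, 1 was called with no filter (Tnfaip6) and 2 with no intensity trend (Vcan and Tnfaip6), against 4, while 3 were called with a pseudocount of 0.1, 3 with the block, 5 with voom (Hyal2 added) and 3 with all 24 libraries (Has1 and Cd44 lost, Hyal2 added). For inverse controls over time, 1 was called with no filter, 1 with a mean FPKM above 5, 3 with the block, 3 with voom and 0 with all 24 libraries, against 2. Calls of pathway genes over the 4 co-culture comparisons were 8 with no filter, 11 with all 24 libraries, 26 with voom and 35 with voom and the block, against 17. Over all genes at 24 h of inverse co-culture, 50 were called with no filter, 98 with no intensity trend, 88 with the block, 527 with voom and 11 with all 24 libraries, against 317, and at 72 h 888 with no filter, 902 (block) and 897 (all 24 libraries), against 1678. In standard co-culture at 24 h, 157 were called with the block and 365 with voom and the block, against 0. For inverse controls over time, 1425 were called with no filter and 225 with all 24 libraries, against 2516. Leaving out 1 library left 67 to 412 genes called at 24 h and 368 to 1637 at 72 h of inverse co-culture, and 1243 to 2369 in the inverse controls over time. Leaving out 1 library gave 0 to 1 members called at 24 h and 1 to 4 at 72 h of inverse co-culture, and 1 to 3 in the inverse controls over time. It turned the sign of small differences, which ranged from -0.08 to 0.74 for Cd44 and -0.49 to 0.10 for Hyal1 in standard co-culture at 24 h, and from -0.13 to 0.02 for Hyal1 and -0.22 to 0.02 for Hyal2 in inverse co-culture at 24 h. The causes were not tested. Under the 359 other settings of member values none changed direction. Inverse replicate numbers did not pair the libraries (r = -0.12 to 0.12), and the block left Vcan uncalled at 24 h (adjusted p = 0.118) and Has1 at 72 h (adjusted p = 0.0566), changed no other call of a member in these comparisons, and left 1 pathway gene called at 24 h and 10 at 72 h. In standard co-culture the block called Vcan and Tnfaip6 at 24 h and no other member at either time. In the inverse controls over time, Has2 was called with it. In standard co-culture without both libraries of replicate 1, or of replicate 2 (both chosen after seeing the data), 0 members were called, the Vcan difference at 24 h being 1.55 or 1.67, and that at 72 h 1.70 or 1.43. Levels of Tnfaip6, Has1 and the link proteins rest on few fragments, which limits their precision.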
